A study of Mus musculus with 6 samples.

Results

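The regions described here were accessible in every library of the study and lay away from both ends of every protein-coding gene. ATAC-seq, in which a transposase inserts adapters into open DNA, had been applied to 3 populations of mouse bone marrow cells, with 1 deposited peak list per library. Peaks of the 6 lists were merged wherever they shared at least 1 bp, which gave 69171 merged regions. Of these, 20468 had a peak in all 6 lists, and 10839 of the 20468 lay more than 1 kb from both ends of every protein-coding gene of the RefSeq annotation (GRCm38.p6, the assembly of mm10). These 10839 regions are called members below. The other 9629 constitutive regions touched or lay within 1 kb of a gene end, and 44784 further regions lay away from gene ends but were called in fewer than 6 lists. The calls chose the members, so their number, and their being called everywhere, is a description.

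All cells came from naive Adig mice on the Balb/c background, in which GFP reports the activity of Aire, a regulator best known for tolerance to self in the thymus. The AireGFP-B220-CD138+TACI+ gate gave plasma cells, the antibody-secreting end stage of the B lineage. The AireGFP-B220+CD138-TACI-IgM+ gate gave immature B cells, newly formed cells that have begun to carry surface IgM. The third population, pc-BMACs, were reporter-positive cells with the plasma cell surface markers, AireGFP+B220-CD138+TACI+. Each population had 2 libraries, made from 2000 to 15000 sorted cells per experiment. The labels do not say whether the 2 libraries came from separate animals, so p-values below measure the spread between these libraries, which may be technical.

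The lists held 34070 to 51643 peaks. Their names mention an intersection, but what was intersected is not stated, so the 2 lists of a population may not be independent. The lists give no reads per peak, which leaves sequencing depth unknown, and no interval that needs it is given. A called region near a marker gene was found for 7 of 7 plasma cell markers in the plasma cell and pc-BMAC libraries, and for 6 of 7 in both immature B cell libraries, which had none at Jchain. Of 5 B cell markers, 5 had a called region in each library except the second pc-BMAC library, which had 3. Calls near T and NK cell markers were found for 1 to 3 of 5 and near myeloid markers for 2 or 3 of 5. The first plasma cell library had calls at 4 of 4 erythroid markers and the other 5 libraries at 0. Aire itself had a called region in all 6, so the calls did not separate reporter-positive from reporter-negative cells. The graded value used here is the covered width, the number of bases of a region that a library's peaks cover. The first immature B cell library and the first pc-BMAC library, which share the R number 2 in their descriptions, had the widest peaks. What the R number stands for is not stated.

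Open chromatin away from gene ends includes enhancers, which transcription factors bind and which act on promoters at a distance, and also insulators, internal promoters and promoters of non-coding RNA. Promoters of widely used genes tend to be rich in CpG dinucleotides and to stay open in many cell types, whereas enhancers tend to be more specific to a cell type. In the B lineage, factors such as Pax5 and Ebf1 maintain the B cell programme, and Prdm1, Irf4 and Xbp1 drive the switch to antibody secretion.

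Among the members, 860 held an annotated transcription start of a protein-coding gene that was more than 1 kb inside that gene. The 250 bases upstream of 5 such starts are shown because they span the range from CpG-rich to CpG-poor windows and belong to regions with described widths. They are RefSeq sequences of GRCm38.p6, all on the minus strand, printed 5′ to 3′, and capitals mark matches to the motifs listed below them.
Foxp1, chr6:99028299-99028548: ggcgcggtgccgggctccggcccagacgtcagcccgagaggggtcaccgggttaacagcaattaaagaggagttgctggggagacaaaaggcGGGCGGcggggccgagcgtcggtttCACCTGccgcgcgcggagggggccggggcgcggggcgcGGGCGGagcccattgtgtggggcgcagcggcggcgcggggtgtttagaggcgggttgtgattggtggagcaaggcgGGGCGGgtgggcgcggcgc
Foxp1, chr6:99266516-99266765: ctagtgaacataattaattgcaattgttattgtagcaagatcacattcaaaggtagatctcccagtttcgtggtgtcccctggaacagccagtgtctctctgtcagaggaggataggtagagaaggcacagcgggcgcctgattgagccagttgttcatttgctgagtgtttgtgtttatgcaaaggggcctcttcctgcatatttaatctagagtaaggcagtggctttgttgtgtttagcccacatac
Runx1, chr16:92697330-92697579: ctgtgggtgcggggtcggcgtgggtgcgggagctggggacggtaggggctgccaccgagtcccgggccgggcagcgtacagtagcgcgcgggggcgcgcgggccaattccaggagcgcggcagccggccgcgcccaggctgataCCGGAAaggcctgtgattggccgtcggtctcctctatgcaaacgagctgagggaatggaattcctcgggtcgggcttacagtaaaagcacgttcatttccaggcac
Prdm1, chr10:44458749-44458998: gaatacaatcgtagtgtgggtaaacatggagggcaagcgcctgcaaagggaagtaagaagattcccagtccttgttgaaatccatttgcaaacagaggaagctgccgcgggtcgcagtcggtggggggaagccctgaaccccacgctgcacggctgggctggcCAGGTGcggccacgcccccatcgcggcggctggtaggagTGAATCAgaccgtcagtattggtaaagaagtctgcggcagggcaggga
Gpr55, chr1:85961056-85961305: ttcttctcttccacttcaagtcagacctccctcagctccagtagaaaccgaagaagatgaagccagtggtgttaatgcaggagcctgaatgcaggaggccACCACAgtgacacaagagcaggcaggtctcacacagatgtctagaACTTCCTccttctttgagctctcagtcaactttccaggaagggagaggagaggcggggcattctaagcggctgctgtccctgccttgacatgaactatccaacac

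The windows differed widely in base composition. The upstream Foxp1 window at chr6:99266516-99266765 had a GC content of 45.2% and 3 CpG, whereas the one at chr6:99028299-99028548 inside the same gene had 74% and 34 CpG. The first held no motif match and the second held 4, 3 of them GGGCGG and 1 an E-box. The Runx1 window had 27 CpG and 1 ETS match, and the Prdm1 window had 15 CpG, 1 AP-1 match and 1 E-box. The Gpr55 window had 3 CpG, 1 RUNX match and 1 ETS match, and its start base was covered in 5 of the 6 libraries. The motifs were searched on both strands and were CTCF (CCA, AG and GGC, each separated by 2 bases of any kind), AP-1 (TGANTCA), RUNX (TGTGGT), ETS (CCGGAA and AGGAAGT), IRF (GAAA, repeated after 2 bases of any kind), E-boxes (CAGCTG and CAGGTG), EBF (TCCC and GGGA, separated by 2 bases of any kind), OCT (ATGCAAAT), CRE (TGACGTCA), UPRE (TGACGTGG), YY1 (AAGATGG followed directly by CGGC), SP (GGGCGG) and NRF1 (GCGCA followed directly by TGCGC). CRE and UPRE share TGACGT, and both ETS forms share GGAA. A match is a string of letters and not a shown binding site.

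Over all internal protein-coding starts, those inside a member had CpG-rich windows. The table of starts, which has none on chromosome 18, held 3881 protein-coding starts more than 1 kb from the ends of protein-coding genes. Of these, 1025 (26.4%), from 822 genes, lay in a member, and 2200 (56.7%) lay in no called region. The median GC content of the 250-base windows was 60.4% in members and 50.0% in no called region. The median CpG count was 15 against 4, and the ratio of observed to expected CpG was 0.682 against 0.247. GGGCGG, which SP factors bind, occurred in 57.4% of the windows in members, 19.8% of those in no called region and 32.7% of all 32851 windows of the table. CCGGAA, which ETS factors bind, occurred in 19.0%, 5.32% and 12.0%, respectively. The other ETS form, AGGAAGT, differed less, at 8.68%, 6.45% and 7.69%. Both GGGCGG and CCGGAA contain a CpG and AGGAAGT does not. The shares were not adjusted for base composition, and its part in them was not tested. TGANTCA was less frequent in members, at 4.59% against 8.59% and 6.75% of all windows. Of the lncRNA starts away from gene ends, 534 of 10087 (5.29%) lay in a member, and the CTCF string was found in 4.87% of these windows, against 1.85% of those in no called region and 2.07% of all. These shares are counts over starts, several of which can share a region or a gene. All 32851 windows comprise 21263 of protein-coding and 11588 of lncRNA starts, at gene ends and away from them. They are thus no matched background for either class alone.

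Annotated starts were counted in members and in the other regions away from gene ends, as a description, since a longer region spans a start more easily. Protein-coding starts were held by 7.93% of members and by 0.574% of the 44784 regions not called in all 6 lists. The share of members rose to 13.4% when peaks had to fill at least 50% of a region and to 19.2% with the widest 17035 peaks of each list. A further 3.53% of members held a lncRNA start and no protein-coding start, against 0.822%. By the number of lists with a call, the share with a protein-coding start was 0.251% for 1 list, 0.541% for 2, 0.869% for 3, 0.851% for 4, 1.06% for 5 and 7.93% for 6. The step from 5 to 6 lists was thus much larger than those between the lower numbers. Members are also longer, and per megabase of region they held 85.3 protein-coding starts, against 15.3 in the regions not called in all 6, and 44.4 lncRNA starts against 22.2. The remaining 9596 members (88.5%) held no start of the table and are called members with no start. They include all 324 members on chromosome 18, for which the table has no starts. Off chromosome 18, 1243 of 10515 members (11.8%) held a start. The table also lacks part of the genes, with starts for 9533 of 12727 lncRNA genes. A member with no start may thus hold one that the table lacks.

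**Figure D1:**
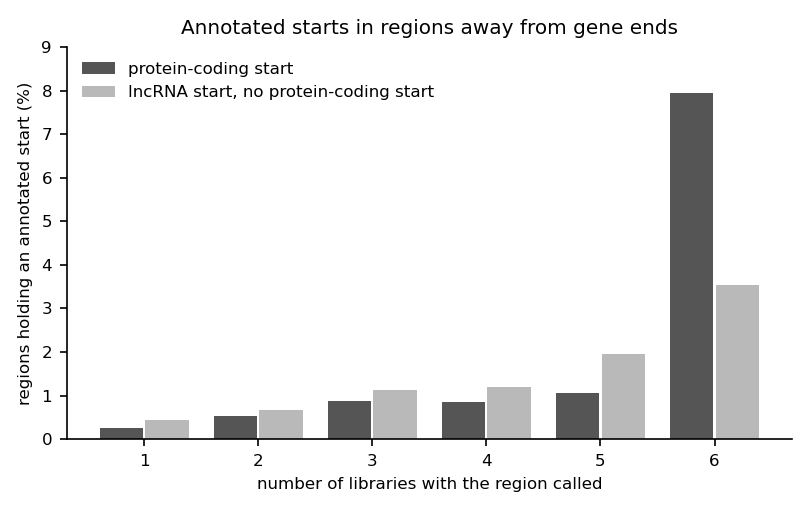
Share of regions away from gene ends that hold an annotated transcription start (y axis, percent), by the number of the 6 libraries in which the region was called (x axis). Dark bars are protein-coding starts and light bars are lncRNA starts without a protein-coding start; the share with a protein-coding start was 1.06% at 5 libraries and 7.93% at 6.

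Constitutive regions away from gene ends were narrower than constitutive regions at gene ends in each library. The median covered width of members was 502 and 498 bp in plasma cells, 784 and 556 bp in immature B cells and 648 and 529 bp in pc-BMACs. At gene ends the medians were 945 and 939 bp, 1266 and 999 bp, and 1171 and 1029 bp. The difference was -472 bp ± 35.0 (SD over libraries, n = 6), with members narrower in 6 of 6 libraries (exact two-sided sign-flip permutation test, p = 0.03125, the smallest that 6 libraries allow, and 0.03125 after Benjamini-Hochberg adjustment over 4 width tests). A longer region also comes within 1 kb of a gene end more easily, so length helped to decide which class a region entered. The p-value therefore does not separate position from length, and the part of length in the difference was not tested. The other width tests of the adjustment involved start classes and are not given as tests here. Grouped by population, the medians of members averaged 500 bp ± 2.83 in plasma cells, 670 bp ± 161 in immature B cells and 588.5 bp ± 84.1 in pc-BMACs (SD, n = 2 each), so pc-BMACs and immature B cells overlapped and both plasma cell libraries were lower. With 2 libraries each, these medians were not tested.

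Members with a start resembled gene-end regions in width more than the other members did. With a protein-coding start, the median was 923.5 and 898.5 bp in plasma cells, 1269.5 and 986 bp in immature B cells and 1162 and 1014 bp in pc-BMACs. With a lncRNA start it was 756, 745, 1105, 789, 956 and 810 bp in the same order, and with no start 468, 464.5, 734, 519, 603 and 489 bp. Members with a protein-coding start exceeded those with none by 496 bp ± 50.4 and members with a lncRNA start by 313.9 bp ± 41.4 (SD over libraries, n = 6). These differences are given without a test, because a wider region is more likely to span a start and so to enter a start class. Regions away from gene ends that were not called in all 6 lists were the narrowest, with medians of 248 to 310 bp, but a wider region is also easier to hit in every list, so that contrast was used by the choice of members.

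**Figure D2:**
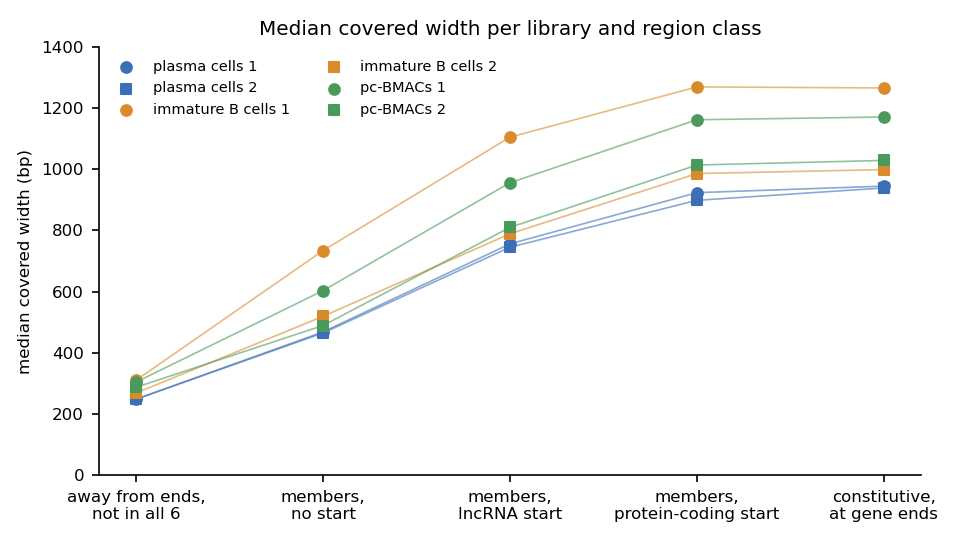
Median covered width in bp (y axis) of 5 classes of region (x axis) in each of the 6 libraries. Each line joins the medians of 1 library; in every library the members without an annotated start had smaller medians (464.5 to 734 bp) than members with a protein-coding start (898.5 to 1269.5 bp).

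The common core of a member, the bases covered in all 6 lists at once, had a median of 335 bp, or 41.7% of the region, against 803 bp (59.8%) at gene ends. In 148 members (1.37%) no base was common to all 6 lists. The merged members had a median length of 924 bp (range 221 to 28075 bp). The overlap of 2 libraries was measured as the bases covered in both over the bases covered in either. Within members this index was 0.812 between the plasma cell libraries, 0.784 between the pc-BMAC libraries and 0.691 between the immature B cell libraries, and at gene ends it was 0.858, 0.833 and 0.767. Across populations it averaged 0.700 for pc-BMACs and plasma cells (range 0.676 to 0.724), 0.644 for immature B and plasma cells (0.593 to 0.699) and 0.622 for pc-BMACs and immature B cells (0.590 to 0.640). The replicate value of the immature B cells fell inside the range of 2 of these cross-population sets, whereas those of plasma cells and pc-BMACs lay above all of them. Pairs of different populations with the same R number averaged 0.688 and the other cross-population pairs 0.645.

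The widest members by mean covered width included regions at or near Icosl, Sfi1, Cytip, Cd69, Midn, Fli1, Plec, Fgd2 and Ago2. The region beside Icosl, which encodes the ligand of the costimulatory receptor ICOS, at chr10:78081404-78109478, covered 8233 and 27828 bp in plasma cells, 10558 and 10428 bp in immature B cells and 8608 and 10630 bp in pc-BMACs. It was thus set apart by a single plasma cell library. Inside Cytip, which encodes a cytohesin-binding protein of leukocytes, chr2:58153460-58161832 covered 6225 and 6277 bp, 8373 and 6696 bp, and 4021 and 3785 bp in the same order. Both pc-BMAC libraries lay below the other 4 there. The member inside Plec, at chr15:76195334-76200185, covered 4723 and 4704 bp, 4383 and 3281 bp, and 4822 and 4695 bp, so 5 of the 6 libraries were close to each other. No filter for repeats or artefact signal was applied, and whether the widest members include such stretches was not tested.

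A protein-coding gene was overlapped by 6354 members (58.6%), against 57.2% of the regions not called in all 6 lists. Another 4046 (37.3%) lay outside genes with the nearest within 100 kb, and 439 (4.05%, against 7.53%) had none within 100 kb. The median distance to a gene end was 14930 bp, against 20102.5 bp, and 6761 members (62.4%) were more than 10 kb away. The 3 members just inside the 1 kb limit lay 1001 bp from an end of Ssc5d, 1002 bp from Gm8439 and 1003 bp from Fam167b, and covered 360 to 711, 275 to 460 and 666 to 876 bp. The 3 constitutive regions just outside it lay 999 bp from an end of Lif, 998 bp from Tac4 and 997 bp from Nt5c3b, and covered 331 to 600, 1465 to 2191 and 150 to 324 bp. Widths on either side of the limit thus spanned overlapping ranges.

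Of the 5 members farthest from any protein-coding gene, 4 lay between chr6:68631676 and chr6:69125304, in the stretch of chromosome 6 with the variable segments of the immunoglobulin kappa light chain. The region at chr6:68735664-68737483 covered 641 and 606 bp in plasma cells, 1820 and 948 bp in immature B cells and 225 and 226 bp in pc-BMACs. Its neighbour at chr6:68680067-68681115 covered 500 and 560 bp, 1049 and 992 bp, and 207 and 188 bp. Both were widest in immature B cells, and in each the 3 populations did not overlap. The other 2 did not order the populations in this way, with 706 and 669 bp, 1003 and 666 bp, and 674 and 522 bp at chr6:68631676-68632719, and 267 to 429 bp at chr6:69124863-69125304. The fifth, chr2:98666215-98667401, covered 1141 to 1186 bp in all 6 libraries and varied least of the 5. No filter for repeats or artefact signal was applied here, so its even width is not shown to reflect open chromatin.

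Some genes held several members in close succession. Linking members less than 10 kb apart gave 8703 groups, of which 7107 were single members and 1596 held 2 or more, with 3732 members among them. The longest run had 8 members over 45942 bp inside Iqsec1 (chr6:90719936-90765877), a gene for a guanine nucleotide exchange factor of ARF proteins. The next had 7 members over 37391 bp inside Sema4d (chr13:51731818-51769208), which encodes the semaphorin CD100, and the third, tied with others of 6 members, lay near Ptma (chr1:86486530-86516487). The median member of the Sema4d run covered 709 and 699 bp in plasma cells, 1535 and 1002 bp in immature B cells and 855 and 462 bp in pc-BMACs. In the Iqsec1 run the medians were 479.5 and 387 bp, 1504.5 and 655.5 bp, and 506 and 508.5 bp. Both runs were thus widest in the first immature B cell library. Relative to the number of genes, chromosome X held 19.6 members per 100 protein-coding genes and the autosomes 32.5 to 68.5.

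Members were linked to the closest protein-coding gene up to 100 kb away, which reached 10400 members and 5423 of 21887 genes (24.8%). Most of these genes, 3175, had 1 member, 367 had 5 or more and 30 had 10 or more. The genes with most members included Foxp1 (23), Gse1 (18), Arid1b (17), Msi2 (16), Akap13 (15), Rftn1 (13), Maml3 (12) and, with 11 each, Chd2 and Ets1, tied with others. Foxp1 and Ets1 encode transcription factors of lymphocytes, and Arid1b and Chd2 chromatin remodelling proteins. The genes with most members are long: the first 10 had a median length of 326 kb, against 50.6 kb for genes that hold a member and 17.2 kb for all protein-coding genes. The 23 regions of Foxp1 were among 98 called regions away from gene ends that were assigned to it.

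In the lists used here, 22 of 24 plasma cell genes (91.7%, 56 members), 23 of 26 haematopoietic transcription factor genes (88.5%, 118 members) and 16 of 22 B cell identity genes (72.7%, 58 members) had at least 1. The share was 17 of 23 for antigen presentation and costimulation, 13 of 18 for homing and adhesion, 15 of 22 for chromatin architecture and cohesin and 13 of 21 for NF-kB and Aire regulation. It was lower for survival genes (8 of 17), myeloid genes (9 of 20), the secretory pathway and unfolded protein response (10 of 25) and the cell cycle (9 of 23). T, NK and innate lymphoid genes (7 of 23), housekeeping genes (5 of 22) and erythroid and megakaryocyte genes (4 of 19) were near the 24.8% of all genes. The share of a list's called regions away from gene ends that were members ranged from 12.8% (T, NK and innate lymphoid) to 29.4% (survival), against 20.1% over all genes. For plasma cell genes it was 20.6% and for B cell identity genes 21.0%, close to that background. List genes differ from others in length and in how many regions they have, and their part in these shares was not tested.

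**Figure D3:**
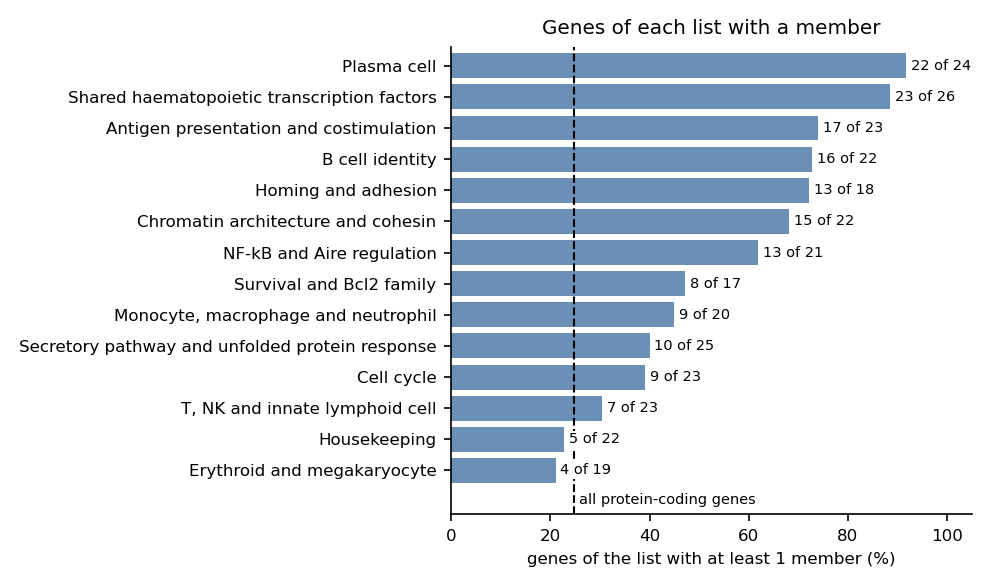
Share of the genes of each of 14 lists (y axis) with at least 1 member assigned to them (x axis, percent), with the counts beside the bars. The dashed line is the 24.8% of all protein-coding genes; plasma cell genes had the largest share, 22 of 24, and erythroid and megakaryocyte genes the smallest, 4 of 19.

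Within the lists, the genes with most members were Bach2 and Ebf1 (10 each) among B cell identity genes, Cxcr4 (6) and Tnfrsf13b (5) among plasma cell genes, Tnfaip3 (10) and Nfkb1 (5) in the NF-kB list, Pdcd1lg2 (5) in antigen presentation, Chd7 (10) after Arid1b in the chromatin list, Eif2ak3 (5) in the secretory list, Bcl2 (7) and Bcl2l1 (6) among survival genes and S1pr1 (7) in the homing list. Several members of these genes were of nearly the same width everywhere. Inside Nfkbiz, which encodes an atypical inhibitor of NF-kB, chr16:55820133-55822758 covered 2479 and 2404 bp in plasma cells, 2597 and 2485 bp in immature B cells and 2517 and 2593 bp in pc-BMACs. Beside Foxo1, a transcription factor of early B cells, chr3:52395458-52398451 covered 2698 and 2672 bp, 2994 and 2863 bp, and 2603 and 2554 bp. The member at an internal start of Nfkb2, chr19:46303757-46306481, covered 2432 and 2308 bp, 2676 and 2562 bp, and 2609 and 2721 bp.

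An end of a non-coding gene or pseudogene lay within 1 kb of 1339 members (12.4%), against 6.73% of the regions away from gene ends not called in all 6 lists. Members are longer (median 924 bp against 320 bp) and so hold an end more easily. The part of length in the shares of this paragraph was not tested. Ends of lncRNA genes were held by 602 members (5.55% against 1.29%), ends of tRNA genes by 72 (0.664% against 0.0692%) and ends of spliceosomal and other snRNA genes by 33 (0.304% against 0.0067%). Immunoglobulin and T cell receptor V segments went the other way, with 10 members (0.0923% against 0.299%). The lncRNA gene with most members at its ends was Gm35149, with 3, and its widest, chr8:14995081-14998626, covered 2530 and 2507 bp in plasma cells, 2636 and 1369 bp in immature B cells and 3464 and 3546 bp in pc-BMACs. Next by this order were Gm51802, Gm34065, 3300005D01Rik, Gm36486, Gm40125, Gm35035, Gm41065, Gm9530 and Mirt1, with 2 each.

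MicroRNA genes were overlapped by 25 members, which touched 27 of the 1228 in the annotation, some of them only in part. A mature RefSeq sequence was at hand for 25 of the 27. The sequences below are those of the microRNAs best known from lymphocytes or hypoxia and of the only pair with a shared seed, and capitals mark the seed, bases 2 to 8, through which a microRNA pairs with its targets.
miR-155-5p: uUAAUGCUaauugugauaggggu
miR-148a-3p: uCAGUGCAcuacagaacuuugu
let-7i-5p: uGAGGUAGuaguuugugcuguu
miR-132-3p: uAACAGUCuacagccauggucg
miR-212-3p: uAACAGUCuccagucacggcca
miR-193a-3p: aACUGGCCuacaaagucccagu
miR-210-3p: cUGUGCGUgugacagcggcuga

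The 7 microRNAs were picked after their regions had been seen. Mir155, a microRNA of activated lymphocytes, lay in chr16:84713106-84714378, which covered 1072 and 1140 bp in plasma cells, 1261 and 1212 bp in immature B cells and 1215 and 380 bp in pc-BMACs. Only the second pc-BMAC library was narrow there. Mir148a, which is known to act on B cell tolerance and plasma cell differentiation, lay in chr6:51269697-51271822, with 1205 and 1341 bp, 975 and 715 bp, and 1992 and 2097 bp. Its 3 populations did not overlap and pc-BMACs were the widest. Mirlet7i lay in chr10:122984765-122986758, with 1366 and 1381 bp, 1994 and 1342 bp, and 1395 and 1341 bp. Mir132 and Mir212, whose 3p products share the seed, lay together in chr11:75172146-75174009, with 821 and 921 bp, 1864 and 973 bp, and 1450 and 1171 bp. Mir193a lay in chr11:79710746-79712287, with 735 and 1006 bp, 1218 and 1101 bp, and 1528 and 1164 bp. At Mir210, the microRNA of hypoxia, chr7:141221459-141222562 covered 801 and 886 bp, 867 and 721 bp, and 1025 and 925 bp. This region overlapped only part of the gene, and the miR-210-3p sequence printed above lay outside it. The other microRNA genes overlapped by members were Mir203, Mir330, Mir713, Mir760, Mir1893, Mir1905, Mir1949, Mir1955, Mir5098, Mir5103, Mir5620, Mir6999, Mir7011, Mir7228, Mir7671, Mir7687, Mir8096, Mir12181, Gm24195 and Gm51289.

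Widths were then compared between populations with limma on log2 covered width, each library centred on its median, over all 20468 constitutive regions, with Benjamini-Hochberg adjustment over all of them and a threshold of 0.05. Differences are given as log2 ± SE of the centred widths. A peak in these lists is at least 150 bp wide, and 54 to 397 members per library were at that minimum, so a region at 150 bp has a difference that depends on the minimum. The relation between width and accessibility was not tested.

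More members differed between pc-BMACs and immature B cells than between plasma cells and immature B cells, and fewest between pc-BMACs and plasma cells. Between pc-BMACs and plasma cells, 374 members were wider and 434 narrower in pc-BMACs, 7.45% of members against 5.3% of all constitutive regions tested (2.65% wider and 2.65% narrower) and 2.88% of those at gene ends. Between plasma cells and immature B cells, 633 were wider and 566 narrower in plasma cells, 11.1% against 8.13% of all (4.35% wider and 3.78% narrower) and 4.84%. Between pc-BMACs and immature B cells, 1284 were wider and 1434 narrower in pc-BMACs, 25.1% against 18% of all (9.11% wider and 8.89% narrower) and 10.0%. In the 3 comparisons 3.45%, 5.84% and 11.8% of members were wider and 4.00%, 5.22% and 13.2% narrower. Every list region below is a member, so these shares are its closer background, while those of all regions include gene ends. The 3 comparisons share libraries, and the difference between the counts was not tested. Of members with a protein-coding start, 4.19%, 4.19% and 12.4% passed in the 3 comparisons, and of members with no start 7.78%, 11.8% and 26.2%. The difference between these classes, which also differ in width, was not tested.

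**Figure D4:**
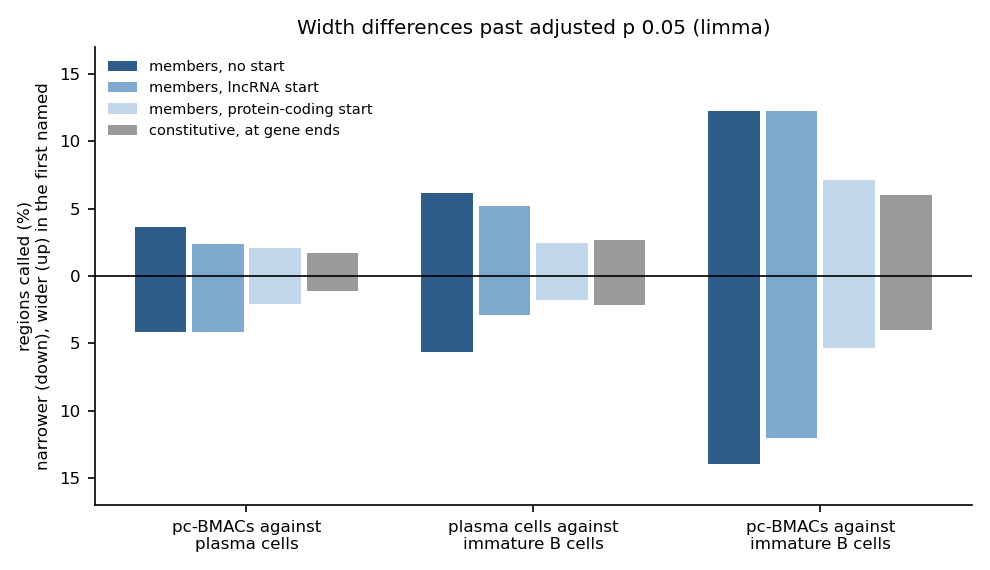
Share of regions past the limma threshold (y axis, percent, wider in the first population above 0 and narrower below 0) in the 3 comparisons (x axis), for members by start class and for constitutive gene-end regions. Of members with no start, 7.78%, 11.8% and 26.2% passed in the 3 comparisons from left to right, counting both directions.

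These counts changed when single libraries were left out and when the R number was used as a block. With the R number of the descriptions as a block, no member passed between pc-BMACs and plasma cells (0 wider and 0 narrower, with 2156 at an unadjusted p under 0.05), 11 wider and 0 narrower passed between plasma cells and immature B cells, and 531 wider and 553 narrower passed between pc-BMACs and immature B cells. So no difference named below between pc-BMACs and plasma cells passed with this block. Of those named below between plasma cells and immature B cells, the regions of Odc1, 1700017B05Rik, Gm38821 (chr6:51287074-51288885), Tent5c and Bcl2 passed with it and the others did not. The block leaves fewer residual degrees of freedom to a fit of 6 libraries. Calls can thus be lost with it even where widths do not follow the R number. Between pc-BMACs and plasma cells, 2156 members had an unadjusted limma p under 0.05 with the block and 2606 without it. The part of lower power in the lost calls was not tested. Without the second pc-BMAC library, 74 wider and 147 narrower members remained past the threshold between pc-BMACs and plasma cells. Without centring, the median member differed by 0.20, -0.37 and -0.14 on the log2 scale in the 3 comparisons, so wider and narrower are relative to the median region, and 66.1%, 34.0% and 42.6% of calls were then wider, against 46.3%, 52.8% and 47.2%.

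The members with the largest increases in plasma cells or pc-BMACs over immature B cells are described next. Inside Gpr55, a receptor for lysophosphatidylinositol, chr1:85956479-85961654, the region of the Gpr55 window printed above, covered 2200 and 2094 bp in plasma cells, 278 and 150 bp in immature B cells and 3680 and 5074 bp in pc-BMACs. The difference was 3.73 ± 0.24 for plasma cells (limma adjusted p = 0.00017) and 4.50 ± 0.24 for pc-BMACs (adjusted p = 5.3e-05), the largest of each comparison. For plasma cells the limma adjusted p at Gpr55, and likewise at Sdc1 and Cacna1c, was 0.0506 with the R number as a block. Inside Sdc1, which encodes CD138, the surface protein on which the cells were sorted, chr12:8779849-8782427 covered 892 and 1041 bp, 150 and 150 bp, and 2487 and 1688 bp. It was wider by 3.02 ± 0.22 in plasma cells (adjusted p = 0.00034) and by 3.87 ± 0.22 in pc-BMACs (adjusted p = 5.7e-05). In these 2 regions the lists of both immature B cell libraries were at or near the minimum.

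The member nearest to Odc1, the rate-limiting enzyme of polyamine synthesis, at chr12:17504881-17507931, covered 1749 and 1840 bp, 233 and 268 bp, and 3051 and 2809 bp, with differences from immature B cells of 3.18 ± 0.21 (adjusted p = 0.00017) and 3.64 ± 0.21 (adjusted p = 5.6e-05). Nearest to 1700017B05Rik, chr9:57270920-57275290 covered 3118 and 2925 bp, 489 and 353 bp, and 4371 and 3622 bp, with differences of 3.20 ± 0.13 (adjusted p = 3.6e-05) and 3.35 ± 0.13 (adjusted p = 1.2e-05). In both regions the immature B cell libraries lay far below the other 4. Inside Cacna1c, the pore-forming subunit of an L-type calcium channel, chr6:118592660-118594312 covered 1653 and 1458 bp, 150 and 150 bp, and 748 and 616 bp. Plasma cells were the widest there (3.71 ± 0.22, adjusted p = 0.00017), and pc-BMACs lay below them (-1.43 ± 0.22, adjusted p = 0.0088). The fifth of this order was beside Gm38821, chr6:51287074-51288885, close to the member with Mir148a, with 1389 and 1230 bp, 232 and 150 bp, and 1812 and 1592 bp (3.14 ± 0.18, adjusted p = 0.00012, in plasma cells). At the Mir148a region itself the difference from immature B cells was 0.94 ± 0.16 in plasma cells (adjusted p = 0.0089) and 1.39 ± 0.16 in pc-BMACs (adjusted p = 0.00067).

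Between pc-BMACs and immature B cells, 18 of the 56 members at plasma cell genes were wider in pc-BMACs, at 12 genes, and 3 were narrower, 2 at Cxcr4 and 1 at Atf6. The median difference was 0.47 over the list and -0.05 over all members, and 9.11% of all regions tested were wider and 8.89% narrower. Of all members, 11.8% were wider and 13.2% narrower. Between plasma cells and immature B cells 10 were wider and 2 narrower (median 0.28), against 4.35% and 3.78% of all regions. Between pc-BMACs and plasma cells 3 were wider and 1 narrower, against 2.65% each. With the R number as a block, 8 were wider and 3 narrower in pc-BMACs than in immature B cells, and without centring 7 and 3. Between plasma cells and immature B cells, 1 was wider and 0 narrower with the block and 3 and 0 without centring, where the median changed sign, to -0.06. In the first comparison the wider members were at Xbp1 (3), Fndc3b (2), Tent5c (2), Sdc1 (2), Zbtb20 (2) and 7 genes with 1 each. The list was put together with results of these cells known, so its direction is no independent evidence.

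Tent5c encodes a poly(A) polymerase that acts on mRNAs of secreted proteins. At chr3:100436410-100441345 the libraries covered 3862 and 3801 bp in plasma cells, 654 and 552 bp in immature B cells and 4936 and 4813 bp in pc-BMACs, with differences from immature B cells of 3.01 ± 0.15 (adjusted p = 8.2e-05) and 3.11 ± 0.15 (adjusted p = 4.5e-05). At Xbp1, a transcription factor of the unfolded protein response, chr11:5498891-5503312 covered 2064 and 1990 bp, 1341 and 903 bp, and 4422 and 3943 bp, and the 3 populations did not overlap. It was wider in pc-BMACs than in plasma cells by 0.80 ± 0.14 (adjusted p = 0.014), and than in immature B cells by 2.02 ± 0.14 (adjusted p = 0.00011). The first of these differences was lost without the second plasma cell library, without either pc-BMAC library, without centring and with the R number as a block. At Creb3l2, a membrane-bound transcription factor of the secretory pathway, chr6:37426138-37430391 covered 2762 and 2274 bp, 1418 and 753 bp, and 4254 and 4154 bp (2.12 ± 0.19 in pc-BMACs against immature B cells, adjusted p = 0.0003). These 3 genes and those of the next paragraphs that the naming rule does not give were chosen after their values were seen.

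Survival genes had 7 of 30 members wider and 2 narrower in pc-BMACs than in immature B cells (median 0.16). Of all regions tested 9.11% were wider and 8.89% narrower, and of all members 11.8% and 13.2%. Without centring 3 were wider and 1 narrower (median 0.06). Inside Bcl2, which encodes the founding anti-apoptotic protein of its family, chr1:106565702-106567955 covered 1433 and 1321 bp, 430 and 266 bp, and 2227 and 1558 bp, with differences from immature B cells of 2.36 ± 0.17 in plasma cells (adjusted p = 0.00034) and 2.56 ± 0.17 in pc-BMACs (adjusted p = 0.00011). A member close by, chr1:106568777-106571538, covered 1927 and 1647 bp, 2762 and 1555 bp, and 2250 and 1879 bp, with no difference past the threshold. Near Pim1, a survival kinase, chr17:29476454-29478904 covered 1581 and 1809 bp, 760 and 688 bp, and 2451 and 2351 bp (1.83 ± 0.16 in pc-BMACs against immature B cells, adjusted p = 0.00027). The secretory list had 5 of 23 wider and 2 narrower in this comparison, with the wider ones at Edem1, Edem2, Herpud1 and 2 genes it shares with the plasma cell list. Without centring, and also with the R number as a block, this became 1 wider and 1 narrower, so its one-sided count was lost.

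**Figure D5:**
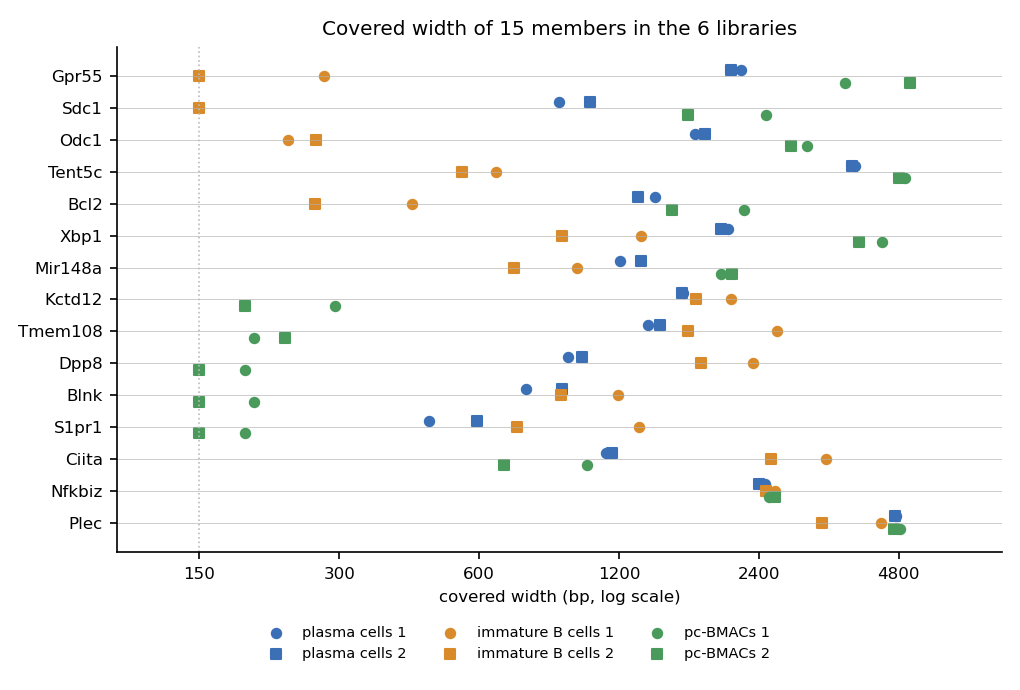
Covered width in bp on a log axis (x axis) of 15 members (y axis, by nearest gene or microRNA) in each of the 6 libraries, with the 150 bp minimum as a dotted line. The first 7 are wider in pc-BMACs than in immature B cells, the next 6 are narrower, and the members at Nfkbiz and Plec have no difference past the threshold.

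Of the 58 members at B cell identity genes, 19 were narrower in pc-BMACs than in immature B cells, at 13 genes, and 5 were wider, 3 of them at Bach2, a repressor of the plasma cell programme (median -0.57). Over all regions tested 8.89% were narrower and 9.11% wider, and over all members 13.2% and 11.8%. The wider share of this list was thus not above the background. Between plasma cells and immature B cells 7 of the 58 were narrower and 3 wider, against 3.78% and 4.35% of all regions. Between pc-BMACs and plasma cells 6 were narrower and 1 wider, against 2.65% each. Without centring these became 1 and 0, and the median changed sign, from -0.16 to 0.08. Between pc-BMACs and immature B cells, 12 were narrower and 2 wider with the R number as a block, and 6 and 2 without centring. Between plasma cells and immature B cells, 0 were narrower and 0 wider with the block and 3 and 0 without centring. Inside Pax5, the factor that fixes B cell identity, chr4:44701444-44706580 covered 646 and 823 bp in plasma cells, 5137 and 2366 bp in immature B cells and 1384 and 601 bp in pc-BMACs. It was narrower than in immature B cells by a log2 difference of -1.92 ± 0.32 in plasma cells (adjusted p = 0.0085) and -1.84 ± 0.32 in pc-BMACs (adjusted p = 0.0046), and both calls were lost without the first immature B cell library and without centring. Inside Blnk, an adaptor of the B cell receptor, chr19:40969936-40971129 covered 757 and 906 bp, 1194 and 899 bp, and 197 and 150 bp. There plasma cells and immature B cells overlapped and only pc-BMACs were narrow, by -2.51 ± 0.21 against plasma cells (adjusted p = 0.0012) and -2.50 ± 0.21 against immature B cells (adjusted p = 0.00021).

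The antigen presentation list had 8 of 34 members narrower and 3 wider in pc-BMACs than in immature B cells (median -0.19), and 6 narrower and 2 wider in plasma cells (median -0.34). Of all regions tested, 8.89% were narrower and 9.11% wider in the first comparison, and 3.78% and 4.35% in the second. Of all members, the shares were 13.2% and 11.8% in the first and 5.22% and 5.84% in the second. With the R number as a block the list counts became 5 and 1, and 0 and 0, and without centring 4 and 1, and 2 and 0. Inside Ciita, the master regulator of MHC class II genes, chr16:10487159-10490502 covered 1126 and 1160 bp, 3344 and 2554 bp, and 1024 and 679 bp, with -1.02 ± 0.16 in plasma cells (adjusted p = 0.0062) and -1.71 ± 0.16 in pc-BMACs (adjusted p = 0.0003). Inside Cd86, a costimulatory ligand, chr16:36626520-36627167 went the other way, with 537 and 580 bp, 329 and 197 bp, and 584 and 520 bp (1.47 ± 0.22 in plasma cells, adjusted p = 0.0056, and 1.21 ± 0.22 in pc-BMACs, adjusted p = 0.0059). Both Cd86 differences, and the Ciita difference in plasma cells, were lost without centring and with the R number as a block. The NF-kB and Aire regulation list had 2 of 31 members wider and 3 narrower in pc-BMACs than in immature B cells, and 0 wider and 0 narrower without centring. Of all regions 9.11% were wider and 8.89% narrower, and of all members 11.8% and 13.2%. Neither share of this list was above that of all members. Between plasma cells and immature B cells 0 of 31 passed.

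Of the homing and adhesion members, 11 of 39 were narrower and 3 wider in pc-BMACs than in immature B cells (median -0.18), and 6 of the 11 belonged to S1pr1. Over all regions tested 8.89% were narrower and 9.11% wider, and over all members 13.2% and 11.8%, so the wider share of this list was not above the background. Without centring 6 of the list were narrower and 0 wider. S1pr1 is the receptor through which lymphocytes leave tissues along a gradient of sphingosine 1-phosphate. Its 7 members spanned 158132 bp, and their median width was 458 and 518 bp in plasma cells, 1248 and 725 bp in immature B cells and 433 and 312 bp in pc-BMACs. The difference between pc-BMACs and immature B cells ranged from -2.45 to -0.51 over the 7, and 6 passed the threshold. The largest was at chr3:115798768-115800092, which covered 469 and 593 bp, 1325 and 725 bp, and 188 and 150 bp, and which was narrower in pc-BMACs than in immature B cells by -2.45 ± 0.25 (adjusted p = 0.00039) and than in plasma cells by -1.89 ± 0.25 (adjusted p = 0.0045). Cxcr4, the receptor that holds plasma cells in the marrow, had members past the threshold in both directions. At chr1:128602002-128603843 the libraries covered 399 and 656 bp, 1842 and 1629 bp, and 328 and 192 bp (-2.69 ± 0.29 in pc-BMACs against immature B cells, adjusted p = 0.00049). At chr1:128635171-128637544 they covered 1123 and 988 bp, 1606 and 507 bp, and 2326 and 2284 bp (1.45 ± 0.33, adjusted p = 0.015), and this increase was lost without centring, with the R number as a block and without either pc-BMAC library.

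Of the 118 members at haematopoietic transcription factor genes, 10 were wider and 21 narrower in pc-BMACs than in immature B cells (median -0.18), with 5 of the narrower at Ets1, 4 at Foxp1 and 3 at Runx1, and 3 of the wider at Ikzf3. Over all regions 9.11% were wider and 8.89% narrower, and over all members 11.8% and 13.2%. The wider share of this list was thus not above the background. With the R number as a block 3 were wider and 5 narrower, and without centring 3 and 8. The 2 internal starts of Foxp1 differed in width as well as in base composition. The CpG-rich one, in chr6:99026708-99029273, covered 1362 and 1216 bp, 2441 and 2277 bp, and 2566 and 2331 bp, with pc-BMACs wider than plasma cells by 0.69 ± 0.16 (adjusted p = 0.043). The CpG-poor one, in chr6:99265252-99266892, covered 716 and 636 bp, 1641 and 1085 bp, and 1077 and 1060 bp, with plasma cells narrower than immature B cells (-0.65 ± 0.16, adjusted p = 0.043). Both calls were lost under most alternatives, among them no centring, the widest single peak as the width and the R number as a block. The Runx1 start region, chr16:92696551-92699028, covered 2052 and 2282 bp, 2381 and 2264 bp, and 1559 and 1111 bp, and was narrower in pc-BMACs than in plasma cells (-0.96 ± 0.17, adjusted p = 0.015). This call was lost without centring, with the R number as a block, and without the second plasma cell or the second pc-BMAC library. The Prdm1 start region, chr10:44457926-44459348, covered 1103 and 1149 bp, 1363 and 797 bp, and 1276 and 1251 bp and passed in no comparison, with differences of 0.45 ± 0.17 between plasma cells and immature B cells and -0.07 ± 0.17 between pc-BMACs and plasma cells.

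Between pc-BMACs and plasma cells, the populations that share the CD138+TACI+ gate and differ in the Aire reporter, the 5 members with the largest increase in pc-BMACs were at Myo5a, Rcc2, Plxnb2, Ptp4a2 and Lrrc28. Inside Myo5a, a myosin motor of vesicle transport, chr9:75195623-75197616 covered 150 and 150 bp in plasma cells, 228 and 282 bp in immature B cells and 1994 and 1268 bp in pc-BMACs (3.17 ± 0.29, adjusted p = 0.0014). Inside Plxnb2, a semaphorin receptor, chr15:89172470-89174238 covered 280 and 150 bp, 1538 and 799 bp, and 1500 and 1402 bp (2.58 ± 0.30, adjusted p = 0.0032). The first was wide in pc-BMACs alone, and the second in pc-BMACs and immature B cells. Near Rcc2, chr4:140689700-140691332 covered 150 and 150 bp, 879 and 150 bp, and 1499 and 1297 bp, and inside Lrrc28, chr7:67528042-67529906 covered 233 and 268 bp, 1001 and 191 bp, and 1865 and 1315 bp. The immature B cell libraries disagreed at both, and both increases (2.98 ± 0.54, limma adjusted p = 0.016, and 2.41 ± 0.51, adjusted p = 0.029) were lost without either pc-BMAC library. Near Ptp4a2, chr4:129781749-129783167 covered 150 and 150 bp, 943 and 703 bp, and 1320 and 736 bp (2.48 ± 0.24, adjusted p = 0.0017).

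The 5 largest decreases in pc-BMACs against plasma cells had as their nearest genes Kctd12, Tmem108, Pik3r5, Dpp8 and Atp1b1. Near Kctd12, an auxiliary subunit of GABA-B receptors, chr14:102906091-102908182 covered 1647 and 1638 bp in plasma cells, 2092 and 1755 bp in immature B cells and 294 and 188 bp in pc-BMACs (-3.05 ± 0.18, adjusted p = 0.00066). Inside Tmem108, chr9:103488287-103490908 covered 1385 and 1471 bp, 2622 and 1693 bp, and 197 and 230 bp (-2.99 ± 0.20, adjusted p = 0.00066). Inside Dpp8, a cytosolic dipeptidyl peptidase, chr9:65073239-65075571 covered 930 and 999 bp, 2333 and 1804 bp, and 188 and 150 bp (-2.76 ± 0.18, adjusted p = 0.00066). In these 3 regions the pc-BMAC libraries were far below the other 4, as they were at the region 113134 bp from Atp1b1. Inside Pik3r5, a regulatory subunit of phosphoinositide 3-kinase gamma, chr11:68451140-68453675 instead covered 2536 and 1746 bp, 519 and 378 bp, and 286 and 452 bp (-2.79 ± 0.30, adjusted p = 0.0026), so plasma cells stood above both other populations. None of these 10 increases and decreases passed with the R number as a block, where the lowest limma adjusted p was 0.0788.

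Against immature B cells, the largest decreases in plasma cells had as their nearest genes Cd83, Zdhhc18, Cstad, Cd81 and Tgfbr2. Near Cd81, a tetraspanin of the B cell coreceptor, chr7:143036505-143039082 covered 269 and 392 bp in plasma cells, 2578 and 1350 bp in immature B cells and 479 and 529 bp in pc-BMACs (-2.19 ± 0.27, adjusted p = 0.0026). The region whose nearest gene is Cd83, which encodes a surface protein of activated B and dendritic cells, lies 227057 bp from it and covered 150 and 242 bp, 1808 and 1215 bp, and 820 and 334 bp (-2.62 ± 0.36, adjusted p = 0.0038). In both, immature B cells were the widest. In pc-BMACs the largest decreases had as their nearest genes Dpp8 (-3.52 ± 0.18, adjusted p = 4.5e-05), Gm38821, in a second region, Hira, Sdk2 and Tmem108. The increases included Txndc11, a thioredoxin-domain protein of the endoplasmic reticulum, whose chr16:11127842-11131821 covered 969 and 473 bp, 424 and 252 bp, and 3199 and 3842 bp (3.52 ± 0.31, adjusted p = 0.00028). Among the regions with microRNA genes, the one with Mir8096, chr1:85750611-85752162, covered 496 and 467 bp, 500 and 503 bp, and 1552 and 1388 bp and was wider in pc-BMACs by 1.37 ± 0.20 against plasma cells (adjusted p = 0.0073) and 1.64 ± 0.20 against immature B cells (adjusted p = 0.00086).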

How the data were processed

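The deposited files were 1 peak list per library with peak coordinates on mm10 (per the submitters' processing notes), and the score column that the authors deposited holds 1000 for every peak and ranked nothing. The submitters' processing notes list Bowtie2 2.3.3, HOMER 4.10 and bedtools but not what each did. Peak-calling settings, and what the intersection named in the lists joined, are not given in the sources at hand. Regions were merged, classified and measured with Python 3.11.15, numpy 2.4.6 and pandas 2.3.3. Widths were fitted with limma 3.58.1 (trend) in R 4.3.3, with 6 libraries in 1 fit and no block, and every limma p was adjusted by Benjamini-Hochberg. The R fit was tested on simulated data. Exact permutation tests used scipy 1.17.1. Genes, ends, starts and sequences came from RefSeq tables of GRCm38.p6. With no genome at hand, the planned motif search over members was replaced, after the files were seen, by one over the 250-base windows before starts. Named regions were the 10 genes with most members, up to 3 per list, the 10 widest members, the 5 largest changes per comparison and direction, the 5 farthest, the 3 longest runs, microRNA genes and those next to the 1 kb limit. Members, lists and rule were chosen with earlier results of these data known. Alternatives changed the overlap, peak number, distance, scaling, width measure, blocks and libraries. Some results that the naming rule gives are not reported here.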

Additional observations from a re-analysis of the deposited data

How the results depend on the processing

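The number of members was 4413 with a region counted as called from 50% cover upward and 3119 with the widest 17035 peaks per list, against 8672 to 11920 under the other alternatives. The share of regions away from gene ends called in all 6 lists (19.5%) became 7.93%, 21.9% (widest 34070 peaks), 20.7% (widest 17035), 18.6% (more than 5 kb) and 18.5% (ends of all genes), and 20.7% to 22.2% without 1 library. Members stayed narrower than gene-end regions under each of these, by -119.8 bp with the widest 17035 peaks and by -494.4 to -467.6 bp without 1 library, where the smallest exact p is 0.0625. Without centring, members wider and narrower were 37 and 19 (pc-BMACs against plasma cells), 88 and 171 (plasma cells against immature B cells) and 472 and 637 (pc-BMACs against immature B cells). With the R number as a replicate block they were 0 and 0, 11 and 0, and 531 and 553. Leaving out each library in turn gave 74 to 406 and 147 to 397, 398 to 589 and 144 to 490, and 707 to 1383 and 760 to 1606, and without the first immature B cell library 589 wider and 144 narrower members were left between plasma cells and immature B cells. The title numbers do not pair the libraries: deviations of same-numbered libraries correlated at 0.011, -0.0044 and 0.083 over members, and a replicate block of these numbers gave 319 and 359, 549 and 450, and 1205 and 1329. Of the named calls, 60 of 180 between pc-BMACs and immature B cells held under all 12 alternatives, 5 of 87 between plasma cells and immature B cells and 0 of 61 between pc-BMACs and plasma cells. With regions assigned only to a gene they overlap, list members were 6354 over all genes, 37 for B cell identity, 26 for plasma cell, 12 for NF-kB, 17 each for antigen presentation and survival, 15 for secretory, 11 for homing, 13 for cell cycle, 2 each for housekeeping and myeloid and 5 for T and NK cell genes. No named difference changed direction under the alternatives run, but several list medians did without centring. Between plasma cells and immature B cells they included the plasma cell (-0.06 against 0.28), survival (-0.24 against 0.10) and secretory (-0.22 against 0.12) lists. Between pc-BMACs and plasma cells they included B cell identity (0.08 against -0.16) and haematopoietic transcription factor genes (0.09 against -0.15). Read depth is unknown, so a region that is not called is not shown to be closed.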
